A study of Mus musculus with 18 samples.

Results

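The comparison described here sets the livers of mice given carbon tetrachloride (CCl4) for 2 weeks against the control livers of the same study. Its members are 6 of the 18 arrays of the series, chosen by their labels alone: 3 arrays of week 2 and 3 control arrays, each from its own mouse. All animals were adult male C57Bl/6N mice with no genetic change, and RNA came from pieces of the right liver lobe. The week 2 mice were 12 weeks old and received CCl4 at 1.6 g/kg body weight into the abdominal cavity, dissolved in olive oil, 2 times a week, and were killed 2 days after the last injection. The control mice were 20 weeks old by their labels, which place them at week 10 and call them healthy. The study's methods describe olive oil alone for the same period and, for the array comparison, untreated mice, while a supplement describes the RNA used for the arrays as coming from livers exposed to oil or CCl4. The sources thus differ on the treatment: the animal methods and the supplement name oil, the array methods name untreated mice, and the labels name no vehicle. The array methods also list a group at the start of the time course, whereas the labels place the control at week 10. Because no control of 12 weeks of age is among the arrays, treatment and age cannot be told apart in any value below. The other 12 arrays, 3 each from weeks 4, 6, 8 and 10 of CCl4, were used to estimate the spread between livers and, at the end, to place week 2 beside the later weeks.

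CCl4 is the classical poison of liver fibrosis research. Hepatocytes around the central vein, which carry the cytochrome P450 enzyme CYP2E1, turn it into a radical that destroys membrane lipids, and these cells die first. Resident macrophages (Kupffer cells) and recruited monocytes then clear the debris, the surviving hepatocytes divide, and stellate cells, which store vitamin A at rest, become myofibroblasts and deposit collagen.

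Each array gives 1 log2 intensity per gene, on a scale that ran from 3.606 to 14.12 and had a median of 4.35, so that values near 4 lie in the dimmest part of the range. On this scale a difference of 1 is a 2-fold change. A gene was called when limma, fitted over all groups, put its p, adjusted by Benjamini and Hochberg's method, below 0.05 and its fold was over 1.5. All adjusted p-values below come from that fit, over 23111 named genes, and each error is the standard error (SE) of the log2 change in it. The labels name the arrays as biological replicates. The markers of liver were in place: Alb, which encodes albumin, read 14.12 on all 6 arrays, equal to the highest value of the whole table. Replicate 2 of week 2 had the largest change in most called genes. In 212 of the 325 called genes it was the week 2 array farthest from the control mean. Replicate 1 was so in 49 and replicate 3 in 64, and without replicate 2, 131 genes were called. The called genes were picked with its values included. Over the 500 most variable bright genes, the SD of differences was 0.558 between replicates 1 and 2. It was 0.517 between replicates 1 and 3 and 0.555 between 2 and 3, so replicate 2 did not stand clearly apart there.

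After 2 weeks, 192 genes were higher and 133 were lower than in control livers, which is 0.831% and 0.575% of the genes tested. Counts of called genes in the lists below stand beside these shares, and a short list without a call lies near them. The groups did not overlap in any of the 325 called genes. They also did not overlap in 5058 genes, or 21.9% of all genes, so that separation of 3 arrays from 3 was common here. At an unadjusted p under 0.05 stood 3486 genes. The median fold change was 2.01 among genes called higher and 1.82 among genes called lower. Changes above 4-fold numbered 12 upward and 18 downward. Many called genes began or ended in the dim range: 36 of the genes called higher had a control mean under 5, and 29 of those called lower had a week 2 mean under 5. The count of called genes depended on single arrays. Without control replicate 2 it was 180, without control replicate 3 it was 164, and without week 2 replicate 2 it was 131, while no other array left out moved it by more than 1.5 times.

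**Figure D1:**
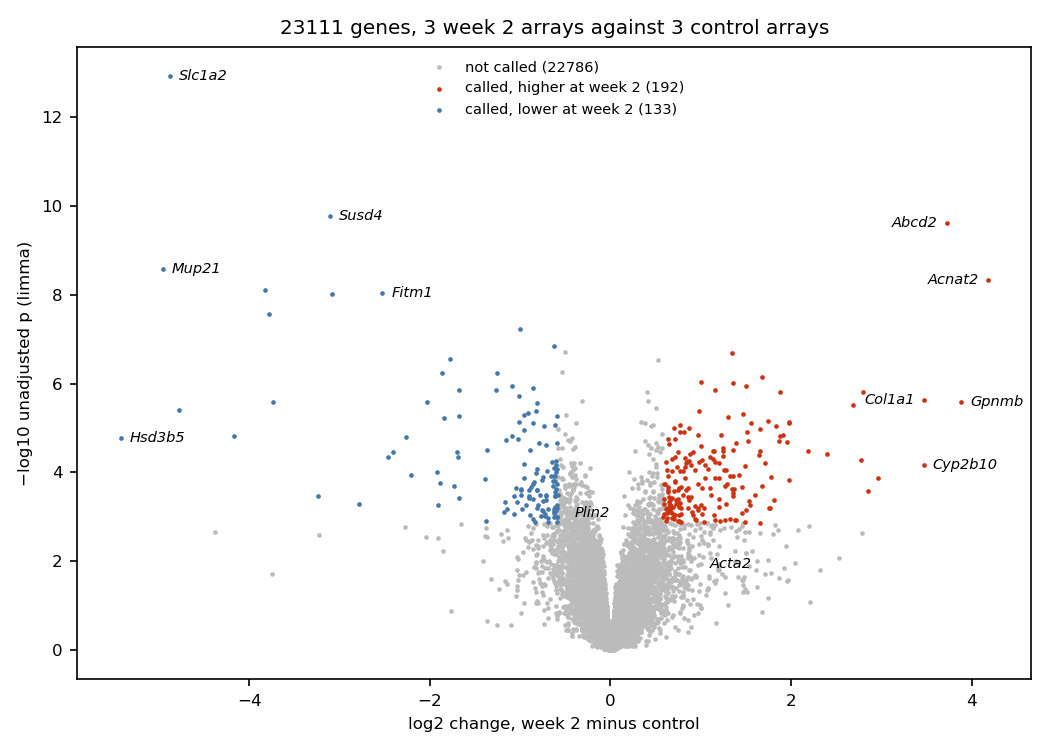
Log2 change at week 2 minus control (x axis) against the negative log10 of the unadjusted limma p (y axis) for 23111 genes, with 192 genes called higher in red, 133 called lower in blue and the rest in grey. Slc1a2 had the smallest p among the falls and Abcd2 among the rises, and Acta2 and Plin2 are marked as genes that were not called.

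The largest rise was that of Acnat2, which encodes a peroxisomal acyltransferase. It read 4.63, 5.66 and 5.30 on the control arrays and 8.99, 9.77 and 9.38 on the week 2 arrays. The lowest week 2 liver was thus well above the highest control liver, and the log2 change was 4.18 ± 0.30 (SE, n = 3 against 3, adjusted p = 2.2e-05). Abcd2, a peroxisomal transporter of very long chain fatty acids, rose almost as far. Its values were 5.68, 4.98 and 5.01 in control and 9.06, 9.15 and 8.63 at week 2, a log2 change of 3.72 ± 0.21 (adjusted p = 1.86e-06). The groups were separated by more than the full range of either. Next in size stood Gpnmb, a transmembrane glycoprotein of lysosome-rich macrophages, Col1a1, a chain of type I collagen, and Cyp2b10, the P450 enzyme commonly used as a readout of the nuclear receptor CAR. Among the 15 largest rises were also Cdkn1a, Atp6v0d2, Col3a1, Lpl, Clec7a, Col1a2, Igsf6, Adgre1, Cd68 and Cybb. Of the 15, all but Cdkn1a, Atp6v0d2 and Cd68 stayed called with each of the 6 arrays left out in turn.

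**Figure D2:**
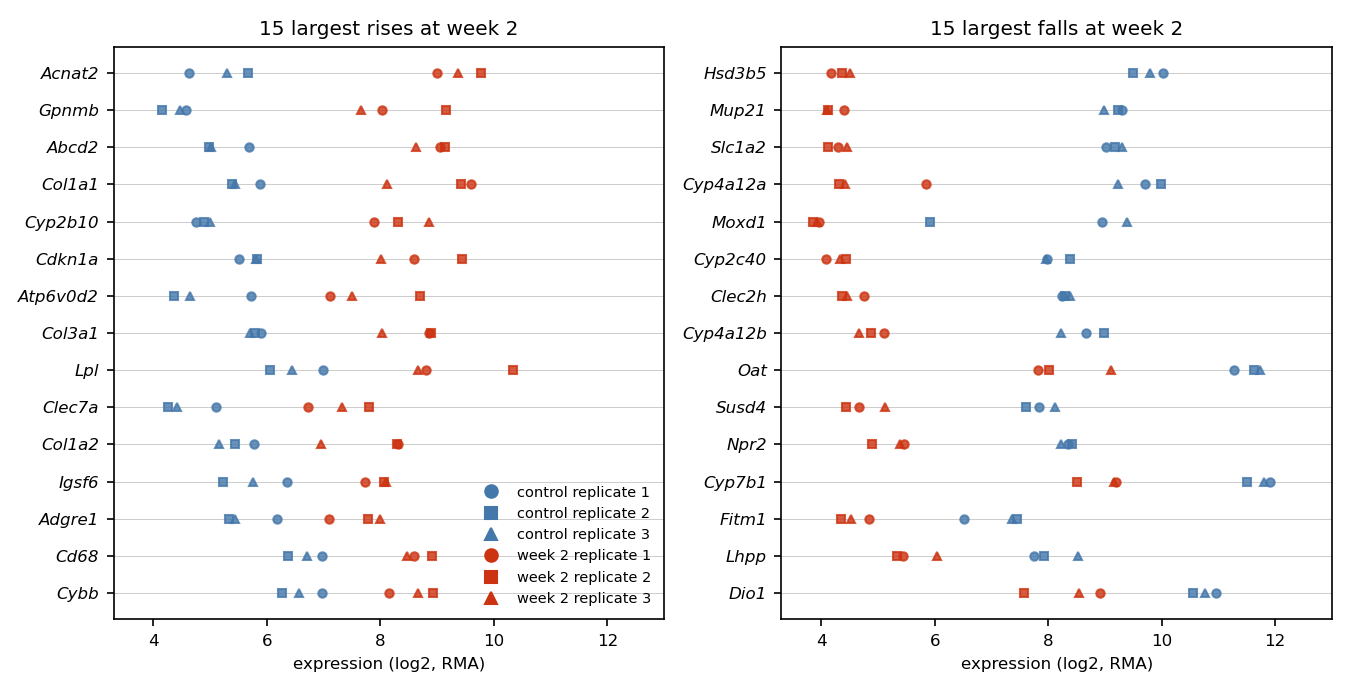
Log2 intensity (x axis) of the 15 genes with the largest rises (left) and the 15 with the largest falls (right), with 1 symbol per array, blue for control, red for week 2 and the shape for the replicate. No gene shows overlap between its groups, and control replicate 2 lies apart in Moxd1 at 5.91 beside 8.96 and 9.38.

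The largest fall was that of Hsd3b5, a 3-ketosteroid reductase of male mouse liver. It read 10.02, 9.50 and 9.79 in control and 4.17, 4.37 and 4.51 at week 2, and so went from a bright signal to the dim end of the scale in all 3 livers (log2 change -5.42 ± 0.82, adjusted p = 0.00457). Mup21, a major urinary protein, went from 9.30, 9.22 and 8.97 to 4.41, 4.11 and 4.09 (log2 change -4.96 ± 0.34, adjusted p = 1.55e-05). Moxd1, a monooxygenase-like protein, read 8.96, 5.91 and 9.38 in control and 3.96, 3.86 and 3.93 at week 2. Its control livers were the unequal ones, while the 3 week 2 livers were nearly alike, and its fall held without control replicate 2 (log2 change -5.25). Clec2h, a C-type lectin, Npr2, a natriuretic peptide receptor, and Dio1, the deiodinase that activates thyroid hormone, changed by -3.78, -3.08 and -2.41. Of the 15 largest falls, Oat and Cyp7b1 lost their call when arrays were left out and the other 13 kept it with each of the 6.

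Several scar collagens were called higher at week 2. Of 17 collagen genes measured, 6 rose and 0 fell, and the median change was 0.44 against -0.01 over all genes. Col1a1 read 5.88, 5.38 and 5.43 in control and 9.59, 9.41 and 8.12 at week 2. Replicate 3 was the lowest of the treated livers and still lay more than 2 log2 units above the highest control (log2 change 3.48 ± 0.43, 11.1-fold, adjusted p = 0.00166). Col1a2, the partner chain, had replicate 3 lowest at week 2 as well, with 5.77, 5.45 and 5.16 in control and 8.32, 8.30 and 6.95 at week 2 (log2 change 2.40 ± 0.39, adjusted p = 0.00687). Col3a1, the collagen of fine reticular fibres, rose by 2.80 ± 0.33 and Col4a1, of basement membranes, by 0.91 ± 0.15 (adjusted p = 0.00121 and 0.0064). These 4 calls held with each array left out. Col6a3 and Col4a2 rose by 1.68 and 0.63 and were each lost without any of the 3 control arrays, week 2 replicate 1 or week 2 replicate 2 (adjusted p up to 0.0917 and 0.153).

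Beyond collagen, 4 of 23 matrix glycoproteins and proteoglycans rose (median 0.32) and 2 of 22 remodelling enzymes and inhibitors (median 0.25), with 0 falling in either list. Sparc, a collagen-binding glycoprotein, went from 8.99, 8.89 and 9.04 to 10.79, 10.90 and 10.27 (log2 change 1.68 ± 0.19, adjusted p = 0.000873). Its control livers lay within 0.2 of each other and all week 2 livers were above them. Mmp14, the membrane-bound protease that activates gelatinase A, rose by 1.51 ± 0.22 (adjusted p = 0.00393). Both held with each array left out. Lum, Postn and Lamc1, which encode lumican, periostin and a laminin chain, rose by 1.54, 1.28 and 0.86, and Mmp2, gelatinase A itself, rose 2.82-fold. None of these 4 held throughout: each lost its call without control replicate 2, control replicate 3 or week 2 replicate 2, Lamc1 and Postn also without week 2 replicate 1, Lamc1 without control replicate 1, and Mmp2 with each of the 6 arrays left out (adjusted p up to 0.131, 0.137, 0.152 and 0.192), and the list of glycoproteins and proteoglycans had 1 called member without any of the same 3 arrays. Timp1, the inhibitor of matrix proteases that is much used as a fibrosis marker, was not called, at 4.09, 4.02 and 3.98 in control and 4.17, 4.69 and 4.13 at week 2 (adjusted p = 0.789).

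Of 20 genes of activated stellate cells and myofibroblasts, 1 rose, Vim, and 0 fell, with a median of 0.12. That is 5% called higher, beside 0.831% of all genes. Acta2, the smooth muscle actin that defines these cells, read 6.16, 6.05 and 5.96 in control and 7.20, 7.30 and 6.68 at week 2. All 3 treated livers were higher than all controls, but the change of 1.00 ± 0.34 was not called (adjusted p = 0.155). Pdgfrb, the receptor for platelet-derived growth factor on stellate cells, and Ccn2, a matricellular target of TGF beta, differed by 0.68 each (adjusted p = 0.103 and 0.13). Vim, the intermediate filament of mesenchymal cells and of macrophages, rose by 1.55 ± 0.34 (adjusted p = 0.0309) and was not called without control replicate 2, control replicate 3, week 2 replicate 1 or week 2 replicate 2 (adjusted p up to 0.131). Of 10 genes of resting stellate cells, 0 were called. Lrat, which esterifies their vitamin A, read 8.23, 7.69 and 7.51 in control and 7.11, 7.29 and 8.32 at week 2, so the groups overlapped. Of 19 TGF beta ligands, receptors and targets, 0 were called, Tgfb2 and Tgfbr1 among them (log2 changes 0.08 and 0.20). In whole liver, a higher signal can come from more cells of a type or from more RNA per cell, and the arrays cannot tell these apart for any list here.

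Of 21 genes of macrophages and monocytes, 9 rose, 0 fell and 12 were not called, with a median of 0.87, and all 21 changes were positive. Adgre1, which encodes the surface antigen used to stain mouse macrophages, read 6.18, 5.33 and 5.44 in control and 7.10, 7.79 and 7.99 at week 2. Every treated liver exceeded every control, with replicate 1 the lowest (log2 change 1.98 ± 0.27, 3.94-fold, adjusted p = 0.00304). Cybb, a subunit of the phagocyte oxidase, Ctss, the cathepsin that prepares antigens, Laptm5, a lysosomal membrane protein of blood cells, and Csf1r, the receptor that keeps macrophages alive, rose by 1.98, 1.88, 1.83 and 1.39, and these 5 genes stayed called with each array left out. Cd68 and the 3 chains of complement component C1q (C1qa, C1qb and C1qc) rose by 1.98, 0.93, 1.46 and 1.60. Each of these 4 calls was lost without control replicate 2 and without week 2 replicate 2 (adjusted p up to 0.0773, 0.139, 0.0905 and 0.11), and the list then had 5 called members in either case. Those of Cd68, C1qb and C1qc were also lost without control replicate 3, that of C1qa without control replicate 1, and those of C1qa and C1qc without week 2 replicate 3. Markers of freshly recruited monocytes were dim and not called: Ly6c2 differed by 0.19 and Ccr2 by 0.30 (adjusted p = 0.406 and 0.0659).

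Proximal promoters of 3 called macrophage genes are shown here, from a list with 9 called rises and 0 falls. RefSeq (build GRCm38.p6) gave the 250 bases before a start for 15 of the 21 listed genes, and the first listed start was used. The letters GAGGAA, the core bound by the myeloid factor PU.1, occurred on either strand in 10 of these 15, in 5 of the 6 called genes among them and in 51 of 144 called-up genes, beside 22.5% of 17496 promoters of genes on the array. In the 3 sequences below, read 5′ to 3′ on the strand of the gene, capitals mark GAGGAA or its complement TTCCTC. The Cd68 window lies at chr11:69666171-69666420 on the minus strand, that of Ctss at chr3:95526536-95526785 on the plus strand, and that of Laptm5 at chr4:130913066-130913315 on the plus strand.
Cd68: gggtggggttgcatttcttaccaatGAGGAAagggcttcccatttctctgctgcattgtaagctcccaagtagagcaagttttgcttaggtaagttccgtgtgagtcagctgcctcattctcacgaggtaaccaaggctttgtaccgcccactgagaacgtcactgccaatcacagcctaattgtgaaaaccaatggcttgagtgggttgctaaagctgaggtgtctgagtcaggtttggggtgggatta
Ctss: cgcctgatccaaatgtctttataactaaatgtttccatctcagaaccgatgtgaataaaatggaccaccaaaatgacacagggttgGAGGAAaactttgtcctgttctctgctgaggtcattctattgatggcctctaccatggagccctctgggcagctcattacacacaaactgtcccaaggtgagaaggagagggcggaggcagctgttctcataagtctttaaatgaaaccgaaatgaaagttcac
Laptm5: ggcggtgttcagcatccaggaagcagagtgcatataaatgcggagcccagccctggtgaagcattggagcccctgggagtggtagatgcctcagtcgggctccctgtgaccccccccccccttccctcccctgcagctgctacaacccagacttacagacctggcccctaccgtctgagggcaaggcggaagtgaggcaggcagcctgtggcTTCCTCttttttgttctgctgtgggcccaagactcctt
Each window holds 1 match, which begins at -225, -164 and -38 from the start, respectively. The window of Cybb, whose change exceeded those of Ctss and Laptm5, held none and is not shown. In the list of scar-associated and lipid-laden macrophages described next, with 10 called rises and 0 falls, GAGGAA occurred in 6 of 14 windows. This string was singled out after its counts had been seen, among 14 searched on both strands, so the count is a description. The others were the STAT string TTCNNNGAA, the NF-Y string CCAAT, the AP-1 string TGANTCA, the SP1 string GGGCGG, the antioxidant response core TGACNNNGC, the TATA box TATAAA, the PPAR string AGGTCANAGGTCA, the HNF1 string GTTAATNATTAAC, the E-box CACGTG, the sterol response string TCACCCCAC, the HNF4 string CAAAGTCCA, the TCF core TTTGAA and the GATA string AGATAA, which occurred in 0 to 6 of the 15 macrophage windows, CCAAT the most often at 6 of 15 beside 35.9% of all.

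A second list holds genes that mark macrophages in scars and in lipid-rich tissue. Of 18 measured, 10 rose and 0 fell, with a median of 1.06. Gpnmb read 4.58, 4.16 and 4.47 in control and 8.03, 9.16 and 7.66 at week 2. From a dim signal it reached more than 3 log2 units above every control liver, with replicate 2 the highest (log2 change 3.88 ± 0.49, 14.7-fold, adjusted p = 0.00166). Clec7a, the beta-glucan receptor Dectin-1, went from 5.10, 4.26 and 4.41 to 6.72, 7.79 and 7.33 (log2 change 2.69 ± 0.34, adjusted p = 0.00182). Lpl, the lipase that frees fatty acids from lipoproteins, read 6.99, 6.06 and 6.45 in control and 8.80, 10.34 and 8.66 at week 2 (log2 change 2.77 ± 0.47, adjusted p = 0.0087). Cd36, the scavenger receptor that takes up fatty acids, rose by 1.87 ± 0.29 (adjusted p = 0.00491). These 4 calls held with each array left out. Trem2, Cd9, Lgals3 and Atp6v0d2, the last a subunit of the lysosomal proton pump, rose by 1.36, 1.43, 1.77 and 2.85 and lost their calls without week 2 replicate 2 (adjusted p up to 0.111, 0.0696, 0.147 and 0.104). Trem2 and Lgals3 were also lost without each of the 3 control arrays, Lgals3 without week 2 replicate 3, Atp6v0d2 without control replicate 2 or 3, and Cd9 without control replicate 1. The list had 10 called genes in all, 4 without week 2 replicate 2 and 6 without any of the control arrays. Apoe and Plin2, which hepatocytes also express strongly, did not rise.

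Of 13 genes of resident Kupffer cells, 4 rose, 0 fell and 9 were not called, with a median of 0.71. Vsig4, the complement receptor of these cells, read 7.35, 7.03 and 6.95 in control and 8.62, 9.26 and 9.19 at week 2, without overlap (log2 change 1.91 ± 0.28, adjusted p = 0.00422). Cdh5, the cadherin of endothelial junctions that is on this list as well, rose by 0.82 ± 0.12. Cd5l and Il18bp rose by 1.38 and 1.11, both lost without control replicate 2, control replicate 3, week 2 replicate 2 or week 2 replicate 3 (adjusted p up to 0.162 and 0.0883), and Cd5l also without each of the other 2 arrays. Clec4f and Timd4, which define the resident cells, differed by 0.66 and 0.57 and were not called (adjusted p = 0.178 and 0.191). Marco, a scavenger receptor, read 5.65, 5.31 and 5.88 in control against 8.18, 7.64 and 9.39 at week 2, a change of 2.79 ± 0.74 that was not called (adjusted p = 0.0669).

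The lists of other blood cell types were short and held many dim genes. Of 12 neutrophil genes, 15 of T and natural killer cells, 10 of B and plasma cells and 12 of dendritic cells and MHC class II, 0 were called in each list, with medians of 0.14, 0.02, 0.004 and 0.18. A short list without a call lies near the 0.831% called higher and 0.575% called lower over all genes. All 12 neutrophil genes and 13 of the 15 T and natural killer cell genes had a control mean under 5. These counts thus do not show whether such cells changed in number. Of 6 erythroid genes, 0 rose and 1 fell, Car1, a carbonic anhydrase, from 6.72, 6.56 and 6.66 to 4.80, 4.64 and 5.38 (log2 change -1.70, adjusted p = 0.0064), a call that held with each array left out. Cd3e, the T cell receptor chain, read 4.11, 4.12 and 4.04 in control and 4.18, 4.12 and 4.16 at week 2, and Ly6g, the neutrophil antigen, read 3.87, 3.86 and 3.83 in control and 3.88, 3.88 and 3.85 at week 2, at the dim end of the scale. Igkc, the immunoglobulin kappa constant region, was higher in all 3 treated livers by 2.07 ± 0.53 and not called (adjusted p = 0.0596). In the sinusoidal endothelium list 2 of 14 genes rose, Lyve1 (the hyaluronan receptor) by 0.94 and Mrc1 (the mannose receptor, also a macrophage gene) by 0.66. The call of Lyve1 was lost with each of the 6 arrays left out (adjusted p 0.0595 to 0.167), and that of Mrc1 without control replicate 1, control replicate 3 or week 2 replicate 2 (up to 0.127). Of 13 genes of vascular endothelium, 12 of bile duct cells, 7 of mesothelium and 8 of pancreas, 0 were called. Krt19 and Epcam, which define bile duct cells, changed by 0.11 and 0.01, and their groups overlapped.

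**Figure D3:**
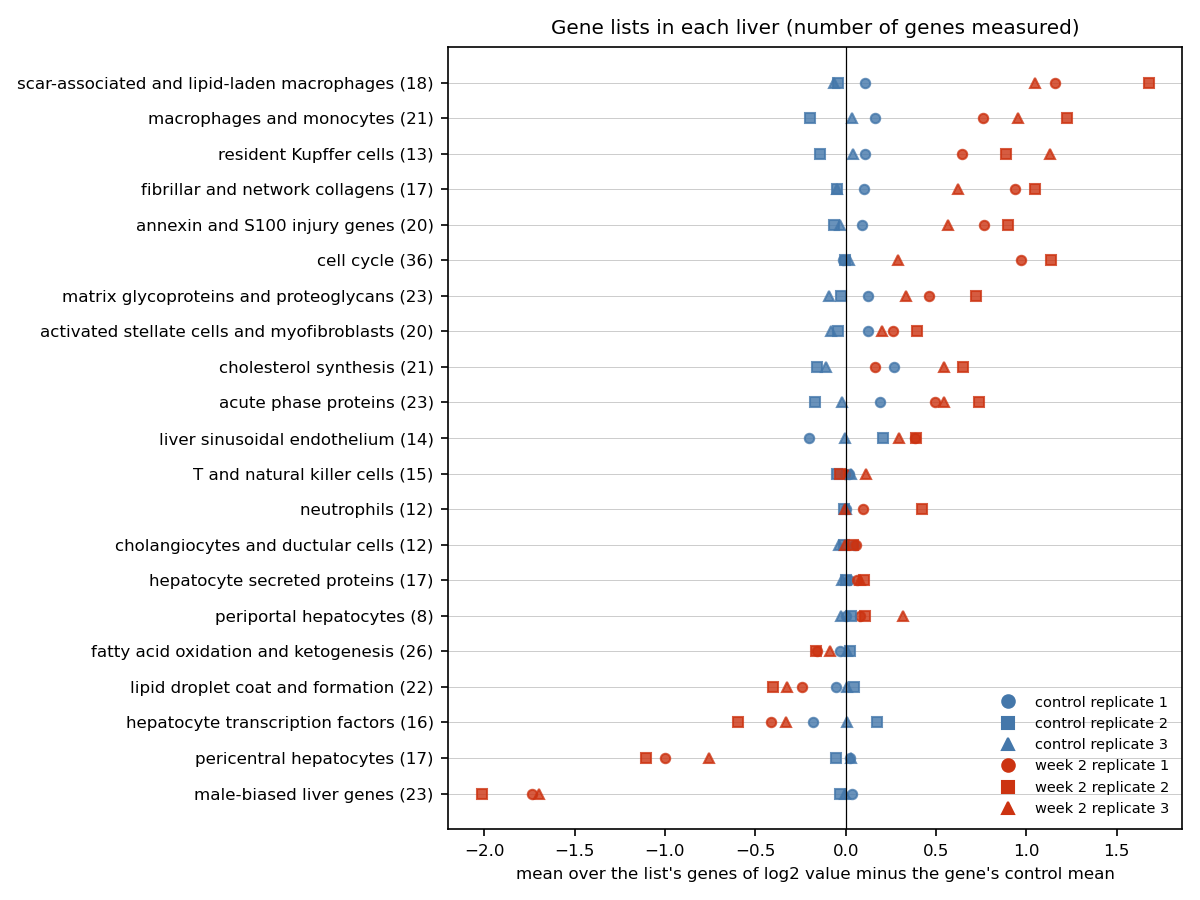
For 21 gene lists, the mean over their genes of log2 value minus the gene's control mean (x axis), with 1 symbol per liver, blue for control and red for week 2, and the number of genes measured in parentheses. The 3 macrophage lists and the collagens lie to the right of all control livers, male-biased and pericentral genes to the left, and in the cell cycle list week 2 replicate 3 stays at 0.29 beside 0.97 and 1.13.

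Falls among hepatocyte genes lay in some lists and not in others. Of 17 genes for secreted plasma proteins, 0 were called, with a median of 0.08, and of 8 periportal genes, 0 were called, with a median of 0.21. The secreted protein genes had a median control level of 13.4 on a scale that ended at 14.12, where changes may be understated. Of 17 genes of pericentral hepatocytes, 4 fell and 0 rose, with a median of -0.36. Slc1a2, the glutamate transporter of the innermost ring of cells around the central vein, read 9.02, 9.19 and 9.30 in control and 4.30, 4.12 and 4.45 at week 2. All 3 livers fell to the dim end of the scale with little spread (log2 change -4.88 ± 0.15, 29.4-fold, adjusted p = 2.77e-09). Glul, the glutamine synthetase of the same cells, went from 12.47, 12.49 and 12.48 to 10.11, 10.25 and 10.31 (log2 change -2.26 ± 0.34, adjusted p = 0.00454). Its livers were almost identical within each group. Lhpp, a phosphatase, fell by 2.46 ± 0.41 (adjusted p = 0.00778), and these 3 calls held with each array left out. Oat, ornithine aminotransferase, read 11.28, 11.63 and 11.74 in control and 7.83, 8.01 and 9.10 at week 2 (log2 change -3.24 ± 0.67, adjusted p = 0.0239). Its call was lost without any single control array, week 2 replicate 1 or week 2 replicate 2 (adjusted p up to 0.105).

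Not every pericentral gene was called. Cyp2e1, the enzyme that activates CCl4, read 13.82, 13.88 and 13.88 in control and 13.29, 13.14 and 13.34 at week 2. The groups did not overlap and the fold of 1.52 was past the threshold, but the change of -0.61 ± 0.26 was not called (adjusted p = 0.278). The arrays of later weeks, which enter the estimate of spread, ran from 12.29 to 13.62. The signal stayed near the top of the scale, where changes may be understated. Cyp7a1, the rate-limiting enzyme of bile acid synthesis, varied as much within groups as between them, at 11.43, 11.01 and 11.48 against 11.48, 10.55 and 12.12. Axin2 and Lgr5, targets of the Wnt signal that keeps the zone in place, were dim on all arrays and changed by -0.06 and -0.36 (adjusted p = 0.912 and 0.42). Of 16 hepatocyte transcription factors, 2 fell, Ppara and Foxa1, and 15 of the 16 changes were negative (median -0.31). Foxa1, a pioneer factor, fell by 0.86 on the log2 scale and was not called without control replicate 2, control replicate 3, week 2 replicate 2 or week 2 replicate 3 (adjusted p up to 0.116).

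Of all lists, the one with the most falls was that of genes expressed more in male than in female mouse liver. In mice, pulses of growth hormone set this pattern through STAT5b. Of 23 genes measured, 12 fell and 0 rose, all 23 changes were negative, and the median was -1.07. With 1 array left out, 6 to 9 of the 23 were called, the fewest without week 2 replicate 2. After Hsd3b5 and Mup21 came Cyp4a12a, a fatty acid hydroxylase, at 9.70, 9.99 and 9.23 in control and 5.84, 4.31 and 4.42 at week 2. Replicate 1 kept more of this transcript than the other treated livers did (log2 change -4.78 ± 0.62, adjusted p = 0.00225). Its neighbour Cyp4a12b fell by 3.74 ± 0.47, though probes of such close relatives may share signal. Susd4, a complement regulator, went from 7.83, 7.61 and 8.13 to 4.67, 4.43 and 5.13 (log2 change -3.11 ± 0.17, adjusted p = 1.86e-06). Nudt7, a peroxisomal coenzyme A hydrolase, fell by 1.68 ± 0.28. These calls held with each array left out. Cyp7b1, an oxysterol hydroxylase, fell by 2.78 ± 0.60 (adjusted p = 0.0305) but was not called with any of the 6 arrays left out (adjusted p 0.0567 to 0.132).

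Male-biased genes did not all fall to the same degree. C8a, C9 and Serpina1e changed by -0.07, -0.03 and -0.07, and Slco1a1, a sinusoidal anion transporter, by -1.37 without a call (adjusted p = 0.643). Elovl3, an elongase that follows sex and the daily clock, read 9.84, 9.51 and 10.04 in control and 6.09, 4.80 and 7.26 at week 2. Its groups lay far apart, yet the change of -3.75 ± 1.41 was not called (adjusted p = 0.206). The arrays of later weeks, which enter the estimate of spread, ran from 4.23 to 10.00. Of 19 female-biased genes, 3 rose (Acnat2, Abcd2 and Atp6v0d2) and 1 fell (Cyp2c69, by 0.86 on the log2 scale), with a median of 0.04. Cyp2a4, a steroid hydroxylase, read 10.04, 9.73 and 10.23 in control and 5.96, 6.36 and 8.00 at week 2 and was not called (adjusted p = 0.0696). Many of the others stayed dim, such as Sult2a1 and Cyp2b13, which changed by 0.02 and 0.05. Of 16 genes of the growth hormone and IGF axis, 0 were called, including Igf1 (-0.24), Ghr (-0.46) and Socs2 (-0.12). Bcl6, a repressor in this axis, read 9.54 in control replicate 1 but 5.99 and 5.83 in the other two, so the control livers were not alike in it.

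Among 37 P450 genes of families 1 to 3, 1 rose and 6 fell. Cyp2b10 was the rise. It read 4.75, 4.88 and 5.01 in control and 7.88, 8.31 and 8.86 at week 2, without overlap (log2 change 3.47 ± 0.60, adjusted p = 0.00968), and its call held with each array left out. Of the 21 CAR and PXR targets measured it was the only called gene, and Cyp3a11, the standard PXR target, changed by 0.01. Cyp2c40, an arachidonate-metabolising enzyme, went from 7.99, 8.39 and 7.96 to 4.09, 4.44 and 4.33 (log2 change -3.82 ± 0.29, adjusted p = 2.87e-05). Cyp2c67 fell by 1.78 ± 0.18 (adjusted p = 0.00045) and also held throughout. Cyp2u1, Cyp2c38, Cyp2d9 and Cyp2d40 fell by 2.20, 1.92, 1.03 and 0.88 on the log2 scale, and each lost its call without week 2 replicate 2 (adjusted p 0.0718, 0.0604, 0.133 and 0.0866 at the most). Cyp2d9 and Cyp2d40 were also lost without each control array, Cyp2d9 without week 2 replicate 1, Cyp2u1 without control replicate 3 and Cyp2c38 without control replicate 2. Of 23 NRF2 targets, 1 rose, Pgd of the pentose phosphate pathway, by 1.20. It was not called without any control array, week 2 replicate 1 or week 2 replicate 2 (up to 0.119). Of 30 glutathione and conjugating transferases, 2 fell, Ugt2b5 and Gstp1, by 0.99 and 0.77 on the log2 scale, both lost without control replicate 2, control replicate 3, week 2 replicate 2 or week 2 replicate 3 (up to 0.0868 and 0.168), and Gstp1 also without control replicate 1.

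Genes of fatty acid use and storage were called in both directions. Ppara, the nuclear receptor that drives fatty acid oxidation, read 9.48, 9.35 and 9.42 in control and 8.52, 8.41 and 8.74 at week 2. The 2 groups were tight and apart (log2 change -0.86 ± 0.12, adjusted p = 0.00305), and the call held with each array left out. Of its 21 targets measured, 3 fell and 0 rose (median -0.39): Cpt1a, the gate of fatty acids into mitochondria, Fabp1, a fatty acid binding protein of hepatocytes, and Pex11a, which divides peroxisomes. They changed by -0.61, -0.60 and -0.60, close to the fold threshold. Cpt1a was not called without control replicate 3 or week 2 replicate 2 (adjusted p up to 0.0542), Fabp1 without control replicate 2 or week 2 replicate 3 (up to 0.0547), and Pex11a without any array but control replicate 1 (up to 0.131). Of 26 oxidation and ketogenesis genes, 1 rose (Acox2) and 3 fell (Eci2, Ppara and Cpt1a), and the median was -0.20. Of these, Eci2, an enoyl-CoA isomerase, held with each array left out (log2 change -0.89), and Acox2, an oxidase of branched chains, was lost without 5 of the 6 (adjusted p up to 0.109), all but week 2 replicate 1.

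Of 22 genes of lipid droplet coat and formation, 3 fell, 0 rose and 19 were not called, with a median of -0.22. Fitm1, which partitions fat into droplets, read 6.51, 7.44 and 7.35 in control and 4.84, 4.35 and 4.52 at week 2 (log2 change -2.53 ± 0.19, adjusted p = 2.87e-05). Control replicate 1 was the lowest control and still far above the treated livers. Its relative Fitm2 fell by 1.02 ± 0.15 (adjusted p = 0.00457). Both held with each array left out, whereas Mgll, monoacylglycerol lipase, fell by 0.90 on the log2 scale and was lost without control replicate 2, control replicate 3 or week 2 replicate 2 (adjusted p up to 0.123). Of 16 uptake and binding genes, 1 fell, Fabp1, and 3 rose: Lpl, Cd36 and Fabp7, a binding protein best known from brain, which went from 6.38, 5.73 and 5.51 to 7.25, 8.12 and 8.12 (log2 change 1.95 ± 0.30, adjusted p = 0.00491). Of 21 genes of lipogenesis, 1 fell, Pparg, by 0.59 on the log2 scale, a call lost with each of the 6 arrays left out (adjusted p 0.0564 to 0.16). Fasn, the fatty acid synthase, read 11.24, 11.10 and 11.39 in control and 12.21, 11.77 and 11.53 at week 2, which was not called (adjusted p = 0.551), and Scd1 and Srebf1 changed by 0.13 and -0.04 with overlapping groups. Insig1, which holds SREBP back in the endoplasmic reticulum, changed by 0.40 (adjusted p = 0.528).

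Sterol genes moved in 2 directions. Abcg5, which with Abcg8 exports cholesterol into bile, read 9.68, 9.86 and 9.76 in control and 8.69, 8.90 and 8.98 at week 2. Abcg8 read 9.98, 9.83 and 9.99 in control and 8.79, 8.77 and 8.96 at week 2. Both fell in every treated liver by about the same amount (log2 changes -0.91 ± 0.12 and -1.09 ± 0.13, adjusted p = 0.00236 and 0.00115). Both calls held with each array left out. Abcg1, the exporter of macrophages, rose by 0.64. It was not called without control replicate 2, control replicate 3 or week 2 replicate 2 (adjusted p up to 0.1). In cholesterol synthesis, 2 of 21 genes rose and 0 fell, with a median of 0.40. Sqle, squalene epoxidase, and Dhcr7, the last reductase of the pathway, rose by 1.21 and 0.78, and both calls were lost without control replicate 2, control replicate 3 or week 2 replicate 2 (adjusted p up to 0.0709 and 0.168), that of Dhcr7 also without week 2 replicate 3. The groups overlapped in the mean of this list: that of control replicate 1 over the 21 genes lay 0.27 above the control mean, beside 0.16, 0.65 and 0.54 in the week 2 livers.

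Of 19 p53 targets and 36 cell cycle genes, 1 each was called higher (5.26% and 2.78%), beside 0.831% of all genes. Cdkn1a, the p53-responsive inhibitor of the cell cycle, read 5.51, 5.83 and 5.82 in control and 8.60, 9.44 and 8.02 at week 2 (log2 change 2.97 ± 0.55, adjusted p = 0.0144), and was not called without control replicate 1, control replicate 3 or week 2 replicate 2 (up to 0.0762). It was the only called gene of 19 p53 targets. Of 36 cell cycle genes, 1 rose, Ccnd1, the cyclin that starts the cycle, by 1.75 ± 0.39, and 34 of the 36 changes were positive (median 0.60). The groups did not overlap in 25 of the 36, beside 21.9% of all genes. The call of Ccnd1 was lost without any control array, week 2 replicate 1 or week 2 replicate 2 (up to 0.138). Mki67, the proliferation antigen, read 5.42, 5.22 and 4.82 in control and 8.21, 8.37 and 6.46 at week 2. Replicate 3 was far lower than the other treated livers, and the change of 2.53 ± 0.81 was not called (adjusted p = 0.133). Ccna2 and Top2a gave the same order of livers, with 4.89 and 4.49 in replicate 3.

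Of 20 annexin, S100 and related injury genes, 6 rose and 0 fell, with a median of 0.68. Tmsb4x, an actin-binding thymosin, went from 8.20, 8.07 and 8.39 to 9.27, 9.50 and 9.38 (log2 change 1.16 ± 0.14, adjusted p = 0.00121). Lgals1, a galectin, rose by 1.72 ± 0.29 (adjusted p = 0.00928), and both held with each array left out. S100a10 and Anxa5 rose by 0.98 and 1.00. The first was lost without week 2 replicate 2 (adjusted p = 0.0514) and the second without all arrays but week 2 replicate 3 (up to 0.139). Of 31 lysosomal genes, 5 rose (median 0.20): the cathepsins Ctss, Ctsd and Ctsc and the proton pump subunits Atp6v0d2 and Atp6v1b2. With 1 array left out the list had 1 to 3 called members.

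Of 23 acute phase genes, 2 rose: Apcs, serum amyloid P, from 8.15, 7.91 and 8.44 to 9.54, 10.33 and 9.58 (log2 change 1.65 ± 0.24, adjusted p = 0.00351), and Itih3, by 0.70. Apcs held with each array left out. Itih3 was lost without control replicate 2, control replicate 3, week 2 replicate 2 or week 2 replicate 3 (up to 0.177). The serum amyloid A genes were uneven already in control livers: Saa2 read 12.03, 8.21 and 9.90 there and 11.15, 11.17 and 10.49 at week 2. Lcn2, lipocalin 2, was higher in all treated livers, at 11.49, 12.31 and 11.41 against 8.93, 9.45 and 10.24, and was not called (adjusted p = 0.0539). Vcam1, the adhesion molecule for white blood cells, rose by 1.65 ± 0.27 and Cxcl16, a membrane-bound chemokine, by 1.08 ± 0.19, the only calls among 18 TNF and NF-kappaB genes and 28 chemokines and receptors. Cxcl16 was not called without week 2 replicate 2 (adjusted p = 0.063). Of 23 interferon-stimulated, 25 unfolded protein response, 13 heat shock, 20 cell death and 26 oxidative phosphorylation genes, 0 were called in each list.

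The 3 treated livers were not equal. In called genes the SD among livers had a median of 0.16 in control and 0.22 at week 2, and it was larger at week 2 in 62.2% of called genes beside 50.4% of all genes. In genes called higher, the median change was 0.91 in replicate 1, 1.19 in replicate 2 and 0.92 in replicate 3. Past a 1.5-fold change in the called direction were 272, 313 and 264 of the 325 genes in the 3 livers, respectively. The genes with the widest spread among week 2 livers, of those with a control SD under 0.5, are a description of these livers and were not tested. Il1b, the cytokine of activated phagocytes, led them with 4.02, 9.03 and 4.29, beside 4.08, 4.14 and 4.10 in control. Only replicate 2 was high. The same liver was by far the highest in Il1a (4.87, 7.20 and 4.75), in the neutrophil chemokines Cxcl1 (6.40, 9.01 and 6.53) and Cxcl2 (3.87, 6.33 and 3.94), in Rgs1, a regulator of G protein signalling in immune cells (4.36, 7.52 and 5.16), and in Thbs1, thrombospondin (4.98, 7.59 and 4.73). Egr1, an immediate early factor, read 6.57, 9.59 and 8.13, so there replicate 3 was raised as well.

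The other wide genes split the livers in other ways. Serpina7, thyroxine-binding globulin, was highest in replicate 1 (10.04, 6.50 and 7.46). Cyp26a1, which degrades retinoic acid, was high in replicate 3 alone (4.48, 4.75 and 7.30), and Inhbe, a hepatocyte activin chain, was lowest in replicate 2 (8.27, 5.49 and 6.87). In 2 of the lists replicate 2 had by far the highest mean. These 2 lists were picked for their means in replicate 2, so neither mean is separate support. The TNF and NF-kappaB list also holds Il1b, named above for its spread, and Egr1, named there too, is an immediate early factor. The mean of 18 TNF and NF-kappaB genes above the control mean was 0.11, 1.10 and 0.17 in replicates 1, 2 and 3, and that of 21 immediate early genes was 0.02, 0.98 and 0.36. Klf6, an immediate early factor of stellate cells, was the only called gene of the latter list, at 6.41, 8.66 and 6.95 against 5.80, 5.60 and 5.64 (log2 change 1.66 ± 0.41, adjusted p = 0.04996), and was lost without any control array or week 2 replicate 3 (up to 0.136). Jun, of the same list, read 7.61, 9.63 and 8.46 at week 2 against 8.13, 7.90 and 8.21 in control (adjusted p = 0.668). The neutrophil list followed replicate 2 as well (0.09, 0.42 and -0.0049), with 0 genes called. Its members differed: in replicate 2, Ngp, Retnlg and S100a8 read 5.40, 4.76 and 4.44, beside control means of 4.07, 3.88 and 3.86. Ly6g, Mpo and Elane read 3.885, 4.32 and 4.24 in that liver, beside control means of 3.85, 4.19 and 4.16. Over the group these 3 changed by 0.02, 0.04 and 0.0047. Whether these values in replicate 2 bear on the counts of called genes was not tested beyond leaving it out.

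**Figure D4:**
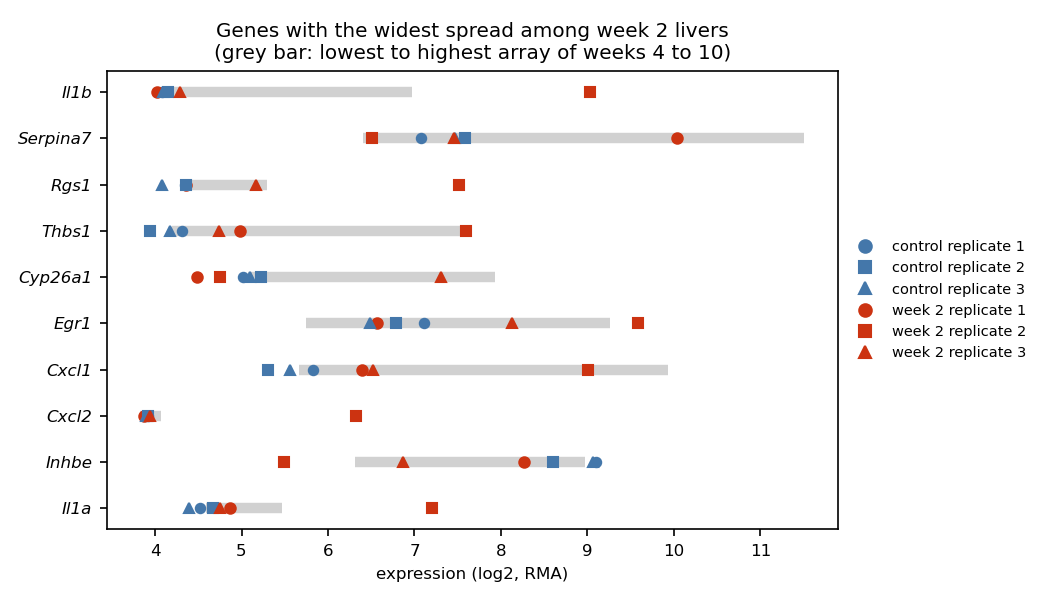
Log2 intensity (x axis) of the 10 genes with the largest SD among the week 2 livers and a control SD under 0.5, blue for control, red for week 2, with a grey bar from the lowest to the highest array of weeks 4 to 10. Week 2 replicate 2 (red square) stands alone in Il1b, Rgs1, Cxcl2 and Il1a, where it exceeds every array of the later weeks.

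Week 2 was also set against the mean of weeks 4, 6, 8 and 10. No gene was called higher (0% of genes tested) and 1 was called lower (0.00433%), with 1113 genes at an unadjusted p under 0.05. Missing calls do not show that the groups were alike. Cyp2b10 differed by 1.88 ± 0.48 and Cyp4a12a by -1.33 ± 0.50 without a call. The called gene was Plin2, the main coat protein of lipid droplets in liver. It read 10.24, 10.33 and 10.25 in control, 9.85, 9.92 and 9.57 at week 2, and 9.98 to 11.06 in the later weeks. Every week 2 liver thus lay below every other liver of the series (log2 change against later weeks -0.85, adjusted p = 0.0112). Against control the difference was -0.50 ± 0.11, with an adjusted p of 0.039 but only 1.41-fold, so it was not called there. Without week 2 replicate 3 no gene was called against the later weeks, and 942 stood at an unadjusted p under 0.05. The weeks of treatment differ in the age of the mice as well, so the 2 cannot be told apart here either.

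Col1a1 at week 2, between 8.12 and 9.59, lay within the 7.99 to 10.96 of the later weeks, and Gpnmb, between 7.66 and 9.16, within 7.27 to 10.40. The later weeks were not at 1 level. The means of Col1a1 were 9.04 at week 2 and 8.57, 10.57, 8.48 and 8.40 in weeks 4, 6, 8 and 10. Those of Gpnmb were 8.29 at week 2 and 8.37, 10.04, 7.73 and 7.84 in the same later weeks. Slc1a2 stayed between 4.10 and 4.76 in the later weeks, close to its 3 values at week 2. Hsd3b5 was dim on most later arrays as well, though 1 array of week 4 and 1 of week 8 read 7.44 and 6.75. Cyp2b10 had its highest group mean at week 2, at 8.35, beside 5.72, 6.23, 7.08 and 6.80 in weeks 4, 6, 8 and 10. It exceeded the mean of the later weeks by 1.88 ± 0.48, which was not called (adjusted p = 0.69), and 1 array of week 8 reached 8.32. Acnat2 and Abcd2 differed from the later weeks by 0.26 and -0.12. Of the macrophage list, the median difference was 0.10 and of the resident Kupffer cell list 0.34, with 0 genes called in either.

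**Figure D5:**
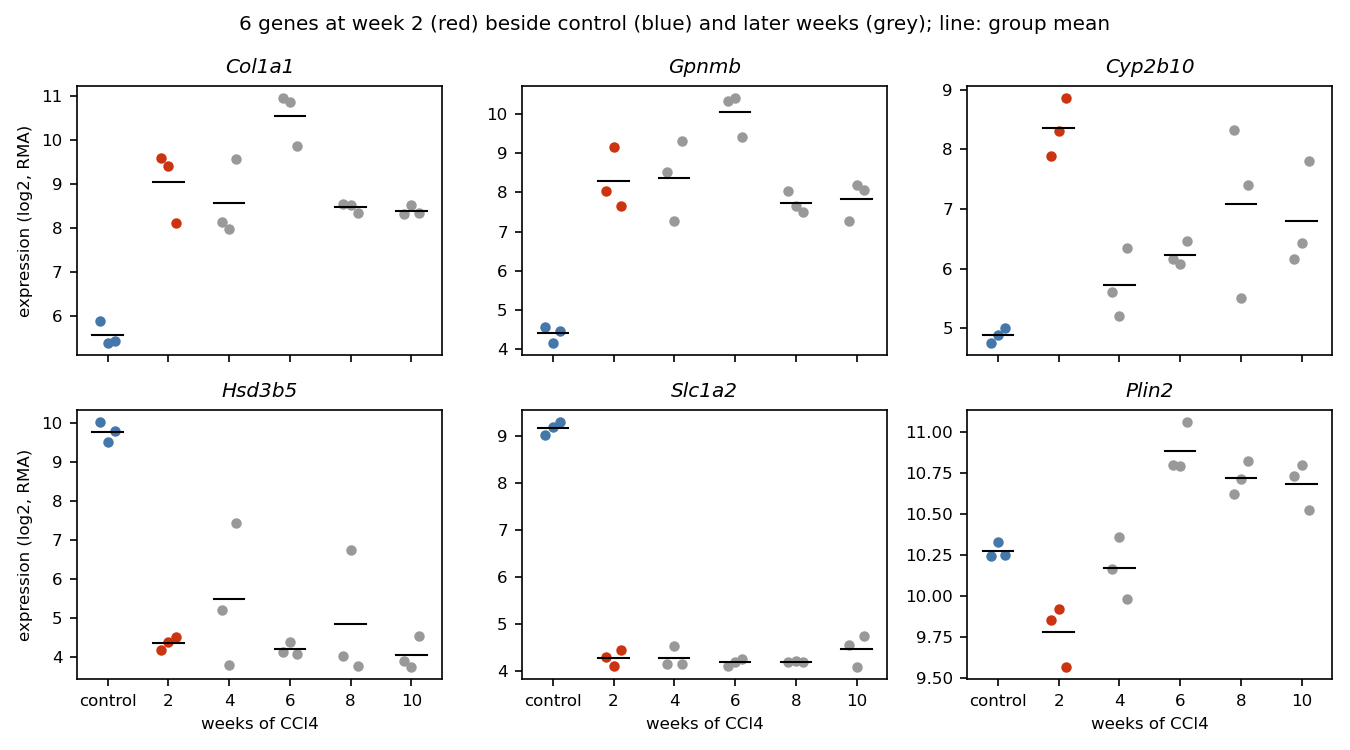
Log2 intensity (y axis) of 6 genes on every array of the 6 groups (x axis, control and weeks of CCl4), with 1 point per liver and a line at the group mean, control in blue, week 2 in red and later weeks in grey. Plin2 is lowest at week 2 with values of 9.57 to 9.92, and Cyp2b10 has its highest mean there, at 8.35.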

How the data were processed

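RNA from mouse liver was hybridised by the authors to Affymetrix Mouse Gene 2.0 ST arrays. The deposited log2 intensities were made by the authors with affyPLM and a Brainarray custom chip definition that gives 1 value per Entrez gene, by robust multi-array averaging (RMA), which subtracts background, sets all arrays to 1 distribution and summarises probes. No version of RMA is given in the sources used here. Values of array intensities carry no read depth, and the number of arrays limits the precision. Of 23748 features, 23111 had a gene name and were tested, and 17 of the 18 arrays held the same sorted values.

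Differences were fitted by lmFit and eBayes of limma 3.58.1, run in R 4.3.3 (Benjamini-Hochberg adjustment over the 23111 genes) with a mean per group over 17 samples. Replicates 1 and 2 of week 6 differed by far less than any other pair within a group (SD of differences 0.137 beside 0.347 to 0.832) and were averaged. The contrasts were week 2 minus control and week 2 minus the mean of weeks 4, 6, 8 and 10. The script was tested on simulated data. Gene lists were 64 in number, with 1064 of their 1151 distinct genes measured; lists overlap. The comparison and the lists were chosen with earlier results of these data known. Genes named are the 15 largest rises and falls among called genes, called members of the lists (at most 8 a list, largest first), defining markers, genes the study followed, and the 10 with the widest spread at week 2; further members without a call, such as Elovl3, Cyp2a4, Marco, Lcn2 and Igkc, were chosen after their values were seen. Some items are not reported here. Replicate numbers did not pair the arrays (correlation of deviations between same-numbered control and week 2 arrays -0.06, 0.04 and -0.14). Alternatives covered the thresholds, the samples and the model of the fit, the scaling, a filter on dim genes and each array left out.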

Additional observations from a re-analysis of the deposited data

Results flagged for a closer look

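Plin2 was the only gene called between week 2 and the later weeks of CCl4, a difference between groups given the same agent for different times. It was lower at week 2 by a log2 change of -0.85, and all 3 week 2 livers lay below all others.

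Among the 637 features without a single gene name, which no list or count of named genes uses, 21 were called at week 2 against control.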

How the results depend on the processing

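Against control, 325 genes were called, 617 with no fold threshold, 147 at a fold of 2 and 23 by limma's treat, which tests against the fold of 1.5. Leaving out 1 array gave 131 to 345 genes, with 180 and 164 without control replicates 2 and 3 and 131 without week 2 replicate 2. With the replicate block 268 genes were called, 157 higher and 111 lower, and 18 of 107 named calls were lost; with only the 6 arrays compared, 254 genes were called and 34 of the 107 were lost. The other settings (18 separate arrays, a trended robust prior, array weights, dim genes left out, quantile or median scaling, all features) gave 319 to 435 genes and lost 0 to 2 of the 107. No named change reversed where it was called in the main fit or in the setting. Changes without a call could turn sign, as in Cyp26a1, which only week 2 replicate 3 held above control. The medians of 7 lists changed sign in some setting, none of them above 0.08 in size. Of the 107 calls, 46 held in every setting that kept the fold threshold of 1.5. That count left out treat and the arrays of weeks 4 to 10 left out in turn.

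Against the later weeks, 1 gene was called, as with the replicate block. It was 0 at a fold of 2, by treat and with only the arrays compared, 2 with 18 separate arrays, and 3 with the trended robust prior or with dim genes left out. Leaving out 1 array gave 0 to 2. The cause was not tested for any of these. With 3 livers a group and controls of 1 age, changes below the spread between livers could not be resolved. Where a group sits at the dim end or near the top of the scale, the fold may be understated.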

Other observations

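Some called genes belong to none of the processes above. Gys2, the glycogen synthase of liver, read 11.93, 12.00 and 11.98 in control and 10.81, 10.61 and 10.72 at week 2, with little spread within either group (log2 change -1.26, adjusted p = 0.000747). Gldc, of the glycine cleavage system, went from 9.17, 9.45 and 9.16 to 10.16, 10.33 and 10.21 (log2 change 0.98, adjusted p = 0.00226), without overlap. Tlr5, the receptor for bacterial flagellin, fell from 6.48, 6.62 and 6.64 to 5.19, 4.64 and 4.89, whereas Tlr8 and Tlr13, receptors for RNA in phagosomes, rose by 0.72 and 0.73. The calls of Gys2, Gldc and Tlr5 held with each array left out, and those of Tlr8 and Tlr13 were lost without control replicate 1, control replicate 2 or week 2 replicate 2 (adjusted p up to 0.0609 and 0.126), that of Tlr13 also without control replicate 3 or week 2 replicate 3. Of 18 genes of the circadian clock, 0 were called and 13 changes were negative (median -0.29). Dbp, an output factor of the clock, differed by -1.04 (adjusted p = 0.281), and the hour of death was not among the labels.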
